A study of Mus musculus with 6 samples.

Results

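Runx1, Runx2 and Runx3 encode the 3 mammalian RUNX transcription factors, and Cbfb encodes CBF-beta, the partner that all of them bind. These 4 genes, taken by their symbols, were 4 of the 23337 genes counted in MLL-AF9 transformed mouse hematopoietic stem and progenitor cells (HSPCs). MLL-AF9 joins the histone methyltransferase gene MLL to AF9 and drives acute leukemia. All 6 libraries came from cells that carry it, 3 of them (replicates 1, 5 and 6) grown in a pro-lymphoid culture and the other 3 (replicates 2, 3 and 4) in a pro-myeloid culture. There was no group without the fusion gene, so each difference below is one between cultures of transformed cells. The sources used here name no strain, sex, vector or cytokine, and do not say how many separate transformations or cultures stand behind the libraries. The p-values therefore rest on variation among libraries that may be technical repeats.

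A RUNX protein binds DNA through its Runt domain, and CBF-beta, which does not touch DNA itself, strengthens that binding and protects the RUNX protein from degradation. Runx1 is needed to form the first blood stem cells and later for megakaryocytes and lymphocytes. Runx2 directs bone formation and is also active in blood progenitors and plasmacytoid dendritic cells, while Runx3 silences Cd4 in cytotoxic T cells and serves NK and dendritic cells. The Runx genes each have a distal and a proximal promoter, and RUNX proteins recognise a short motif that includes the letters ACCACA.

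That motif occurs as a close pair at the distal start sites of the Runx genes. The stretches around the pair are shown because they hold the longest run of bases shared near the 3 distal start sites. Other parts of the genes were not compared. The stretches are RefSeq sequences of the GRCm38.p6 assembly, 30 bases each, written along the gene's own strand. Capitals mark each ACCACA. The Runx1 stretch lies at chr16:92826025-92826054 on the minus strand, the Runx2 stretch at chr17:44814583-44814612 on the minus strand and the Runx3 stretch at chr4:135120503-135120532 on the plus strand.
Runx1: cataaacaACCACAgaACCACAagttgggt
Runx2: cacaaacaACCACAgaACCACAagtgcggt
Runx3: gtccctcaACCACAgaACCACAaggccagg

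The 3 stretches have in common an unbroken run of 18 bases, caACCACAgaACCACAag. Among the 32851 RefSeq promoter windows of 300 bases (250 before to 50 after a start site), 4 held this run on either strand, which is 0.0122%. They were the distal windows of the 3 Runx genes and that of Gm16225, whose window overlaps the Runx3 window on the opposite strand. The run lay at bases 27 to 44 after the annotated start in Runx1 and at bases 22 to 39 in Runx2, but before the start in Runx3, at -136 to -119. Searched on both strands as ACCACA or TGTGGT, the motif had at least 1 match in 16.8% of all windows and at least 2 in 1.81%. The distal windows of Runx1 and Runx3 had 2 matches each and that of Runx2 had 3, the added one starting at -80. No match was found in the proximal windows of Runx1 and Runx3 or in the Cbfb window, which says only that these letters are not in those windows. There was no proximal window for Runx2, so its proximal promoter was not searched. The Runx2 start used, chr17:44814627, lies inside its counted gene model.

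Since Runx3 was the one of the 4 genes called different between the cultures, the 250 bases before each of its start sites are given whole. The distal one, at chr4:135120395-135120644 on the plus strand, had a GC content of 63.7% over its 300-base window. The proximal one, at chr4:135152295-135152544, lies 31900 bases further along the gene and had 77.3% GC, against a median of 52.7% over all windows. Capitals again mark ACCACA.
Runx3 distal: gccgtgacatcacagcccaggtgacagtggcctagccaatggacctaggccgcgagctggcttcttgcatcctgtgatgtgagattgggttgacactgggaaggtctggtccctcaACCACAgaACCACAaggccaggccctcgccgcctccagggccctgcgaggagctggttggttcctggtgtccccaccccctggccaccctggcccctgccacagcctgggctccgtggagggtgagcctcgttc
Runx3 proximal: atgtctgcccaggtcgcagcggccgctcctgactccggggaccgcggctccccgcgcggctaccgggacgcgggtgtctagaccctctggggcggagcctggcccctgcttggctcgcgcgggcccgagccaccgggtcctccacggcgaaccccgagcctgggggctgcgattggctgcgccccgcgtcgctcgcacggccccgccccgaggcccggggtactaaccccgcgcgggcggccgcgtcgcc

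The counted gene models span these promoters, so the counts do not separate distal from proximal transcripts. In the mm10 build Runx1 covers chr16:92601466-92826066 on the minus strand with 8 merged exons of 7369 bases in all. Its proximal start lies 128745 bases from the distal one. Runx2 covers chr17:44604001-44814797 on the minus strand with 9 merged exons (6928 bases), and Runx3 chr4:135120645-135177990 on the plus strand with 6 (3891 bases). Cbfb covers chr8:105170674-105217988 on the plus strand with 6 merged exons (2913 bases). The last exon makes up 63.2% to 71.6% of the counted length in the 4 genes. Reads were counted without regard to strand. The antisense gene Gm26626 shares 106 exon bases with Runx1 and Runx2os1 shares 519 with Runx2, so reads of those antisense transcripts would be counted with the sense gene. Both antisense genes are from the GENCODE annotation. Among the genes counted here none shares exon bases with a member, and Supt3h, which overlaps the Runx2 span, shares 0.

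**Figure D1:**
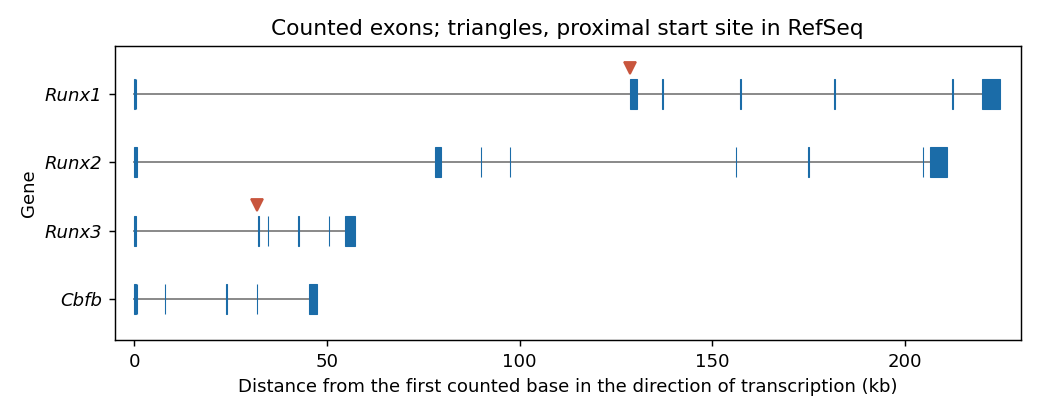
Counted exons of Runx1, Runx2, Runx3 and Cbfb (rows) against the distance in kb from the first counted base, in the direction of transcription. Blue boxes are merged exons to scale and red triangles mark the proximal start sites of Runx1 and Runx3 in RefSeq, 128745 and 31900 bases from the distal ones; the large boxes at the right are the last exons, which hold most of the counted bases.

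Total counts ran from 34972488 to 46724382 per library and did not differ between the cultures beyond their spread (two-sided exact permutation p = 0.6; 3 against 3 libraries allow no p below 0.1). Libraries of 1 culture had a Spearman correlation across genes of at least 0.966, and libraries of different cultures of at most 0.909. All 7 HSPC markers listed, among them Ptprc, Cd34, Kit, Myb and Spi1 (counted under its older symbol Sfpi1), had counts in both cultures, 2 of them (Kit and Cd34) called higher and 3 (Ptprc, Spi1 and Myb) lower in pro-lymphoid culture. Neutrophil lineage markers (7 genes) summed to 96.9 to 214 CPM (counts scaled to a common library size, with the TMM correction for composition) in pro-lymphoid culture and 2790 to 6860 CPM in pro-myeloid culture. Plasmacytoid dendritic cell markers (8 genes) summed to 1100 to 1930 CPM and 836 to 1300 CPM, mostly from Irf8 and Tcf4 in both cultures. Macrophage markers (7 genes) summed to 269 to 606 CPM and 335 to 690 CPM, mostly from Csf1r in both cultures. Markers of T cells, whose Cd3e was at 0, summed to at most 3.66 CPM in any library. Megakaryocyte markers summed to at most 5.77 CPM with Gp6 at 0, and erythroid markers to at most 1.42 CPM with Hbb-b1 and Hba-a1 at 0. NK cell markers summed to 2.30 to 4 CPM and 13.7 to 43.0 CPM, mostly from Nkg7, with Ncr1 and Gzma at 0. Mast cell and basophil markers summed to 0.445 to 2.02 CPM and 9.58 to 30.7 CPM, with Fcer1a and Prss34 at 0. In these bulk samples fewer cells of a type and less RNA per cell cannot be told apart.

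All 4 genes were expressed in every library, and 1 of the 4, Runx3, differed between the cultures. Its level was 2.78-fold higher in pro-lymphoid culture (95% interval 2.21 to 3.50). Runx1, Runx2 and Cbfb did not pass the test, with ratios of pro-lymphoid to pro-myeloid level of 0.719, 0.844 and 1.05. A gene was called changed at an adjusted p under 0.05 in edgeR's quasi-likelihood test with Benjamini-Hochberg adjustment over all 12477 tested genes. By that rule 38.6% of tested genes were called, 17.4% as higher and 21.3% as lower in pro-lymphoid culture, so 1 call among 4 genes is not more than that background.

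Runx1, the founder of definitive blood formation, was counted at 137, 91.7 and 138 CPM in pro-lymphoid replicates 1, 5 and 6. In pro-myeloid replicates 2, 3 and 4 it was at 160, 200.1 and 150 CPM. The groups did not overlap, with pro-lymphoid replicate 5 the lowest library and pro-myeloid replicate 3 the highest. Means were 122 ± 26.4 CPM in pro-lymphoid culture and 170 ± 26.7 CPM in pro-myeloid culture (SD, n = 3). The log2 fold change, pro-lymphoid minus pro-myeloid here and throughout, was -0.48 (SE 0.19, 95% interval -0.92 to -0.03), with an edgeR adjusted p of 0.0863. Runx1 was thus not called, and its unadjusted p in that edgeR fit was 0.0399. The log2 fold change was -0.30 without pro-lymphoid replicate 5.

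Runx2, the bone regulator, was at 159, 212 and 181 CPM in the pro-lymphoid libraries and at 225, 226 and 204 CPM in the pro-myeloid libraries. Only pro-lymphoid replicate 5 lay within the pro-myeloid range, and the groups overlapped. Mean levels were 184 ± 26.9 CPM and 218 ± 12.4 CPM (SD, n = 3). The difference did not pass the test (log2 fold change -0.25, SE 0.13, 95% interval -0.55 to 0.06, edgeR adjusted p = 0.179). The interval covers ratios from 0.681 to 1.04.

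Runx3, the family member of cytotoxic T, NK and dendritic cells, was at 149, 182 and 190 CPM in the pro-lymphoid libraries. The pro-myeloid libraries had 69.6, 63.2 and 54.8 CPM. Every pro-lymphoid library lay above every pro-myeloid one, and the gap between the groups was wider than the range within either. Runx3 rose from 62.5 ± 7.46 CPM in pro-myeloid to 174 ± 21.7 CPM in pro-lymphoid culture (SD, n = 3; log2 fold change 1.47, SE 0.14, 95% interval 1.14 to 1.81, edgeR adjusted p = 0.000349). By size this was at percentile 83.6 of the absolute log2 fold changes of all tested genes, whose median was 0.45. The call held in each of the 8 other settings of scaling, filter and test and with each library left out, with log2 fold changes of 1.38 to 1.57 when a library was left out.

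Marker genes of progenitors and of other cell types differed between the cultures in the same libraries as Runx3. Siglech, a receptor gene of plasmacytoid dendritic cells, was at 6.78, 93.1 and 51.1 CPM in the pro-lymphoid libraries and at most at 1.30 CPM in the pro-myeloid ones. Spib, a transcription factor of those cells, was at 54.2, 146 and 56.5 CPM and at most at 0.15 CPM. Both were highest in pro-lymphoid replicate 5, whereas Runx3 was highest in replicate 6. Of the 8 markers on that list, 7 were tested, 6 were higher and 1 (Tcf4) was lower in pro-lymphoid culture. Kit and Cd34, receptor and surface genes of progenitors, were higher as well, at 83.5 ± 16.8 and 308 ± 105 CPM against 24.9 ± 15.5 and 117 ± 29.2 CPM (SD, n = 3; edgeR adjusted p = 0.0141 and 0.00766). Of the other HSPC markers, Ptprc, Spi1 and Myb were lower in pro-lymphoid culture, and Ly6a and Cd33 were not called. All 7 neutrophil lineage markers and both tested mast cell and basophil markers, Mcpt8 and Ms4a2, were lower. Of the 6 NK cell markers 2 were tested, Klrb1c, which was higher (0.39 ± 0.16 and 0.09 ± 0.05 CPM, edgeR adjusted p = 0.0284), and Nkg7, which was lower (2.50 ± 1.07 and 25.3 ± 14.4 CPM, edgeR adjusted p = 0.00222). Ncr1 and Gzma were at 0 in all 6 libraries. Of the 7 T cell markers only Lck was tested, at 1.84 ± 0.96 and 1.97 ± 0.91 CPM and not called, and Cd3e was at 0. The part of all these cell types in the Runx3 difference was not tested.

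Cbfb, the shared partner, was at 183, 222 and 236 CPM in the pro-lymphoid libraries and at 206, 171 and 235 CPM in the pro-myeloid libraries. The groups overlapped across nearly their whole range. Means were 214 ± 27.3 CPM and 204 ± 32.5 CPM (SD, n = 3), with a log2 fold change of 0.07 (SE 0.16, 95% interval -0.30 to 0.43, edgeR adjusted p = 0.758). The interval spans ratios from 0.814 to 1.35, so changes within those bounds remain possible. The log2 fold change of Cbfb did not keep its sign, with -0.006 without pro-lymphoid replicate 6 and -0.048 without pro-myeloid replicate 3.

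Of the 4 genes, Runx1 and Runx3 had groups that did not overlap. Among all tested genes 53.5% did the same, so that count too is near the background.

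**Figure D2:**
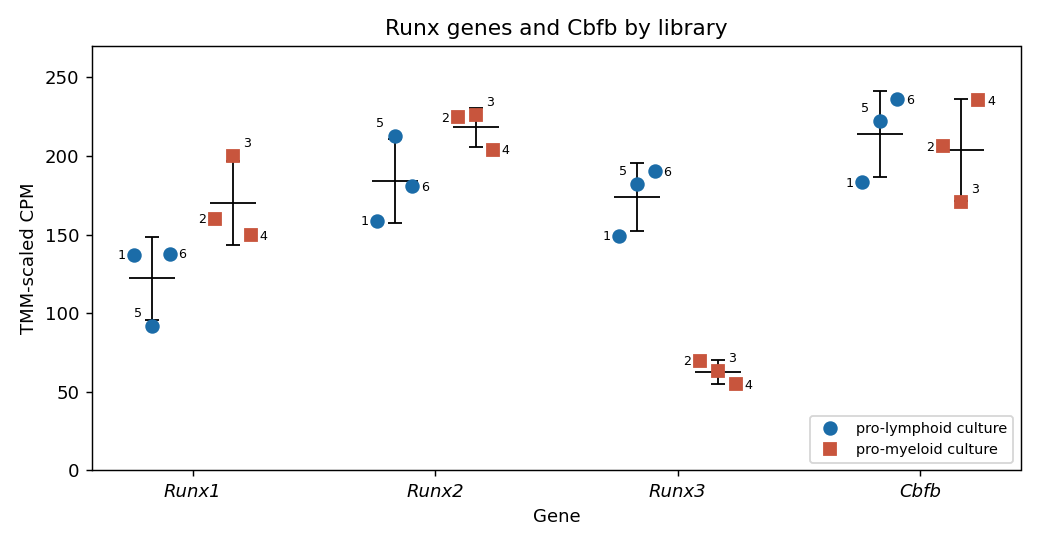
TMM-scaled CPM (vertical axis) of Runx1, Runx2, Runx3 and Cbfb in each library. Blue circles are pro-lymphoid and red squares pro-myeloid libraries with their replicate numbers, and black bars give the mean and SD of 3 libraries; Runx3 is the gene with a wide gap, 149 to 190 against 54.8 to 69.6 CPM.

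Levels of different genes were compared after division by the counted exon length. On that scale Cbfb was the most abundant of the 4 in both cultures, at 73.4 ± 9.36 CPM per kb in pro-lymphoid culture and 70.1 ± 11.1 CPM per kb in pro-myeloid culture (SD, n = 3). It stood at percentiles 90.7 and 89.5 of the tested genes. The order of the Runx genes differed between the cultures. In pro-lymphoid culture Runx3 led with 44.7 ± 5.56 CPM per kb, followed by Runx2 with 26.6 ± 3.89 and Runx1 with 16.6 ± 3.58 CPM per kb. In pro-myeloid culture Runx2 led with 31.5 ± 1.79 CPM per kb, followed by Runx1 with 23.1 ± 3.62 and Runx3 with 16.1 ± 1.92 CPM per kb. On this scale Runx3 was the highest Runx gene in one culture and the lowest in the other. The lead of Runx3 in pro-lymphoid culture rests on the length scaling, since before it Runx2 had more CPM than Runx3 in pro-lymphoid replicates 1 and 5 (159 and 212 against 149 and 182). So does the lead of Cbfb over Runx2, which had more CPM than Cbfb in pro-myeloid replicates 2 and 3. Within each culture the ranges of neighbours in this order did not overlap. Among tested genes Runx3 was at percentile 84.3 in pro-lymphoid culture and 60.7 in pro-myeloid culture, while Runx1 was at 62.3 and 69.9 and Runx2 at 73.6 and 76.7. These levels assume that every counted exon base is transcribed equally. A shorter last exon in use, or a start that leaves out counted distal exons, would raise a gene's true level. How far the use of start sites bears on the order and shares of the Runx genes was not tested.

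Expressed as shares of the summed length-scaled Runx level, Runx3 made up 48.0%, 52.0% and 52.2% in the pro-lymphoid libraries and 24.8%, 21.4% and 22.1% in the pro-myeloid libraries. The mean share was 50.7% ± 2.37 against 22.8% ± 1.85 (SD, n = 3), a difference of 28.0 percentage points. Runx1 made up 19.0% ± 4.79 in pro-lymphoid culture and 32.6% ± 2.87 in pro-myeloid culture, and Runx2 30.2% ± 3.40 and 44.7% ± 1.62. The groups did not overlap for any of the 3 shares. Each had a two-sided exact permutation p of 0.1 (0.1 after Benjamini-Hochberg adjustment over the 3), the smallest that 3 against 3 libraries allow, so none could pass 0.05. Since the shares add up to the whole, a larger Runx3 share lowers the other two by construction.

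The summed Runx level was 79.9, 89.8 and 93.7 CPM per kb in the pro-lymphoid and 72.0, 76.0 and 63.8 CPM per kb in the pro-myeloid libraries. Every pro-lymphoid library was above every pro-myeloid one (means 87.8 ± 7.11 and 70.6 ± 6.23, SD, n = 3, two-sided exact permutation p = 0.1, adjusted 0.2). This separation rests on the length scaling, since before it the summed CPM of the Runx genes overlapped between the cultures. The log2 ratio of Cbfb to that sum was -0.26 ± 0.07 in pro-lymphoid culture and -0.02 ± 0.36 in pro-myeloid culture, a difference of -0.24 (two-sided exact permutation p = 0.4). The pro-myeloid libraries ranged from -0.38 to 0.34 and enclosed all 3 pro-lymphoid values. Transcript levels were measured here, and protein and complex formation were not.

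**Figure D3:**
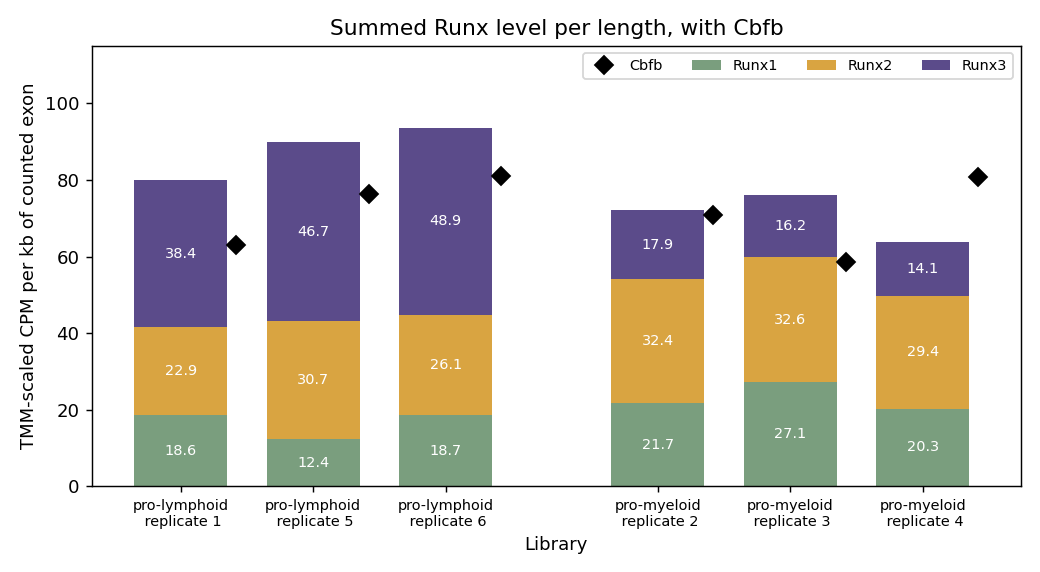
Stacked bars give the length-scaled level (TMM-scaled CPM per kb of counted exon) of Runx1, Runx2 and Runx3 in each of the 6 libraries, with black diamonds to the right of each bar for Cbfb. Runx3 is the largest segment in the 3 pro-lymphoid bars (38.4 to 48.9) and the smallest in the 3 pro-myeloid bars (14.1 to 17.9), while Cbfb covers similar ranges in both cultures.

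Whether the 4 genes differed from each other in their response was tested on the log2 ratio of each of the 6 pairs per library. These ratios were taken from counts, without division by exon length. The ratio of Runx1 to Runx3 differed by -1.96 between the cultures, that of Runx2 to Runx3 by -1.73 and that of Runx3 to Cbfb by 1.40. In these 3 pairs the groups did not overlap, and each had a two-sided exact permutation p of 0.1 (adjusted 0.2 over the 6 pairs), the smallest possible. The ratio of Runx3 to Cbfb was almost the same in the 3 pro-lymphoid libraries (-0.30, -0.29 and -0.31) and spread more in the pro-myeloid libraries (-1.57, -1.43 and -2.10). The 3 pairs without Runx3 overlapped between the cultures. Their differences were -0.23 for Runx1 to Runx2 (exact permutation p = 0.8), -0.56 for Runx1 to Cbfb (p = 0.2) and -0.33 for Runx2 to Cbfb (p = 0.3).

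Over the 6 libraries, Runx1 and Runx3 had a Pearson correlation of log2 levels of -0.72 and Runx2 and Runx3 of -0.58. The other pairs lay between -0.53 (Runx1 and Cbfb) and 0.24 (Runx3 and Cbfb). These coefficients are descriptions over 6 points that share the culture contrast. Among 9184 genes with a mean of at least 5 CPM, the genes most like Runx3 were Pip4k2b, a phosphoinositide kinase gene, Rtn4rl1, a Nogo receptor relative, and Jag2, a Notch ligand (r = 0.997 each). Mean levels in pro-lymphoid and pro-myeloid libraries were 157 and 104 CPM for Pip4k2b, 23.8 and 0.40 CPM for Rtn4rl1 and 18.1 and 4.53 CPM for Jag2. These genes were chosen for following Runx3 over the same libraries, so their direction follows from the choice and was not tested. Intu, a planar polarity gene, was the most opposite (r = -0.998), at 6.53 and 13.9 CPM.

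For Runx1 the most similar genes were Tatdn1, Gin1 and Cpt1a (r = 0.98 each), with Dph2 the most opposite (-0.99). Each of these, like Runx1, had pro-lymphoid replicate 5 and pro-myeloid replicate 3 at its extremes. For Runx2 they were Grhpr, Man1c1 and Sh3bp4 (r = 0.99, 0.99 and 0.98), and Eed, a Polycomb subunit, was the most opposite (-0.99). Cbfb was matched by Rbm7, Vma21 and Akirin2 (r = 0.99, 0.98 and 0.97), with Fkbp15 the most opposite (-0.98).

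The surroundings of the family were read from lists of its cofactors, partners, modifiers and known target genes. They are given as counts beside the shares over all tested genes, which were 17.4% higher and 21.3% lower with a median log2 fold change of 0.00. RUNX proteins recruit both co-repressors and co-activators. Of 26 genes listed as cofactors 25 were tested, 11 were higher, 2 were lower and 12 were not called, with a median log2 fold change of 0.29. The arginine methyltransferase genes Carm1 and Prmt1 were at 70.1 ± 5.62 and 311 ± 32.6 CPM in pro-lymphoid culture against 34.0 ± 3.35 and 154 ± 16.5 CPM in pro-myeloid culture. Their log2 fold changes were 1.04 (SE 0.13, edgeR adjusted p = 0.000915) and 1.01 (SE 0.13, edgeR adjusted p = 0.00119). Without pro-lymphoid replicate 5 or 6 or pro-myeloid replicate 4, 7 cofactors in place of 11 were called higher.

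Genes of the Groucho family, whose Tle members encode co-repressors that bind the C-terminal end of RUNX proteins, were called in both directions. Of the 5 listed, 3 (Tle2, Tle4 and the family member Aes) were higher and 1 (Tle3) was lower. Tle3 fell from 286 ± 39.3 to 142 ± 15.5 CPM, a log2 fold change of -1.01 (SE 0.14, edgeR adjusted p = 0.00165). Tle4 rose from 19.9 ± 2.96 to 35.9 ± 2.41 CPM (0.85, SE 0.16, edgeR adjusted p = 0.00520). Tle2, 4.32-fold higher at 4.24 ± 1.79 CPM in pro-lymphoid culture, had the largest log2 fold change of them (2.11, edgeR adjusted p = 0.00967), and Aes had 0.49 (edgeR adjusted p = 0.0188). Tle1 was not called (-0.35). The other lower cofactor was the histone acetyltransferase gene Ep300 (-0.73, edgeR adjusted p = 0.0276). Without pro-lymphoid replicate 5 or 6 or pro-myeloid replicate 2 or 3 only 1 cofactor, Tle3, was called lower. Cbfa2t3, of the ETO family, was at 110 ± 16.9 and 82.9 ± 18.1 CPM and did not pass (0.41, edgeR adjusted p = 0.128), but was called without pro-myeloid replicate 2 (0.57, edgeR adjusted p = 0.0426). Runx1t1, the ETO gene itself, had 0 counts in all 6 libraries.

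Partner transcription factors, which occupy blood enhancers together with RUNX1, were mostly lower in pro-lymphoid culture. Of 12 listed, 11 were tested, 7 were lower, 2 were higher and 2 were not called, and the median log2 fold change was -0.61. Leaving out a library gave 5 to 7 lower. Ets1, whose product binds next to RUNX1 and relieves its autoinhibition, was at 0.19, 0.08 and 0.14 CPM in the pro-lymphoid libraries and at 120, 78.4 and 101 CPM in the pro-myeloid libraries. With 16 and 11937 counts over the groups its log2 fold change was -9.49 (SE 0.31), and the edgeR adjusted p was 1.17e-06. Cebpa, the C/EBP factor of granulocytes and monocytes, fell from 492 ± 126 to 125 ± 27.1 CPM (-1.98, SE 0.24, edgeR adjusted p = 0.000890). Spi1 was at 283 ± 8.88 and 415 ± 78.8 CPM and was called lower (-0.55, edgeR adjusted p = 0.0241), but not once any 1 pro-lymphoid library was left out (edgeR adjusted p up to 0.0825). Gata2 did not pass (-1.77, edgeR adjusted p = 0.0558), with 146 CPM in pro-myeloid replicate 2 and 33.2 and 40.9 CPM in replicates 3 and 4. It was called with DESeq2 (adjusted p = 0.0497) and without pro-myeloid replicate 3 (edgeR adjusted p = 0.0365), and its log2 fold change was -0.78 without pro-myeloid replicate 2. Ldb1, the bridging factor of the GATA, TAL1 and LMO2 complex, was among the higher ones (0.75, SE 0.09, edgeR adjusted p = 0.000972). The other higher one was Tal1, named after its value was seen, at 17.3 ± 6.41 and 3.09 ± 2.27 CPM (2.47, edgeR adjusted p = 0.0126).

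Kinases, cyclins and ubiquitin ligases that modify RUNX proteins or set their turnover were called in both directions. Of 21 listed, 20 were tested, 5 were higher, 5 were lower and 10 were not called, with a median log2 fold change of 0.17. Ccnd1, one of the D cyclins, which bind RUNX proteins, was at 434, 684 and 527 CPM in the pro-lymphoid libraries and at 11.5, 5.77 and 5.79 CPM in the pro-myeloid libraries. Its log2 fold change was 6.16 (SE 0.36) with an edgeR adjusted p of 3.36e-05, and that of Ccnd2 was 1.47 (SE 0.17, edgeR adjusted p = 0.000812). Pim1, a kinase that phosphorylates RUNX1 and RUNX3, fell from 383 ± 37.8 to 48.5 ± 21.1 CPM (-2.98, SE 0.30, edgeR adjusted p = 0.000388). Left-out libraries moved the count of higher modifiers between 3 (without pro-lymphoid replicate 5 or 6 or pro-myeloid replicate 3 or 4) and 9 (without pro-myeloid replicate 2), and that of lower ones to 3 without pro-lymphoid replicate 5 or 6.

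Myeloid genes with known RUNX1 sites had, of 10 listed and 8 tested, 7 lower and none higher in pro-lymphoid culture, with a median log2 fold change of -5.17. Gfi1, a transcriptional repressor that granulocyte development needs, was at 0.18 ± 0.05 and 86.9 ± 14.5 CPM, and Cebpe, a late granulocyte factor, at 0.16 ± 0.12 and 71.9 ± 17.4 CPM. The neutrophil elastase gene Elane was at 1.89 ± 1.61 and 1509 ± 215 CPM. Log2 fold changes were -8.91, -8.71 and -9.61 (edgeR adjusted p = 9.03e-07, 7.66e-06 and 4.14e-05). Mpo, myeloperoxidase, was lower by -5.98 (edgeR adjusted p = 0.0106) with a wide pro-myeloid range of 148 to 3304 CPM. Csf1r, the M-CSF receptor, was not called (-0.83, edgeR adjusted p = 0.156), but was without pro-lymphoid replicate 1 (-1.33, edgeR adjusted p = 0.0333). Of the listed genes 4 are also among the neutrophil lineage markers. Cebpa and Spi1 stand on this list and on that of the partner factors, so the 2 lists are not separate observations.

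Of the 21 lymphoid genes on the list of RUNX targets, 7 had enough counts to be tested, 3 of them higher, 1 lower and 3 not called. Rag2, of the V(D)J recombinase, had 21.4, 17.6 and 15.4 CPM in the pro-lymphoid libraries and 4 counts over the 3 pro-myeloid libraries together (log2 fold change 8.94, edgeR adjusted p = 4.76e-07). Its partner Rag1 had 616 pro-lymphoid counts and 0 pro-myeloid counts, at least 205-fold higher when 3 counts are set for the whole pro-myeloid group (edgeR adjusted p = 0.00797). Itgae, the CD103 integrin that RUNX3 regulates in T cells, was at 1.76 ± 0.73 and 0.36 ± 0.05 CPM, with a log2 fold change of 2.27 (SE 0.45, edgeR adjusted p = 0.00703). Itgal, another integrin gene of leukocytes, was not called (0.24, edgeR adjusted p = 0.136). The lower gene was Zbtb7b, the ThPOK factor that Runx3 opposes in T cells, named after its value was seen, at 68.3 ± 21.9 and 124 ± 19.5 CPM (-0.85, edgeR adjusted p = 0.0250), and it was not called without pro-lymphoid replicate 5 or 6. Cd4, which Runx3 silences in cytotoxic T cells, had too few counts to be tested, 28 in pro-lymphoid culture and 0 in pro-myeloid culture, at least 9-fold higher against 3 counts. Of those 28 counts most came from pro-lymphoid replicate 5, at 0.55 CPM against 0.05 and 0.12 CPM in replicates 1 and 6. Intervals and floors cover counting error only.

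Of 7 megakaryocyte targets, 2 were tested. Nfe2 was lower (45.9 ± 16.9 and 157 ± 27.8 CPM, log2 fold change -1.77, edgeR adjusted p = 0.00336). Itga2b was not called (1.28, edgeR adjusted p = 0.109), and Pf4 had 2 counts in all. Of 15 bone and chemokine receptor genes tied to RUNX2, 6 were tested, with 1 higher, 3 lower and 2 not called. Spp1, osteopontin, was at 18.1 ± 2.46 and 278 ± 204 CPM (-3.94, SE 0.70, edgeR adjusted p = 0.00451). Col1a1, a bone collagen gene, had 4 and 84 counts (edgeR adjusted p = 0.00777), and that call was lost without pro-lymphoid replicate 6 (edgeR adjusted p = 0.0550). Phex, an osteoblast peptidase gene, had 154 and 3 counts, a ratio of 51.4 with a counting interval of 17.3 to 252, and lost its call without pro-myeloid replicate 4 (edgeR adjusted p = 0.0519). Stromal and osteoblast markers summed to 2.14 to 19.7 CPM in pro-lymphoid and 5.65 to 17.2 CPM in pro-myeloid libraries, mostly from Pdgfrb. Among these markers Col1a2, Col3a1, Dcn, Lum and Ibsp were at 0. The chemokine receptor gene Ccr2 was not called (-1.15, edgeR adjusted p = 0.255), but without pro-myeloid replicate 2, which had 69.9 CPM against 975 and 561, it was (-1.67, edgeR adjusted p = 0.00165).

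**Figure D4:**
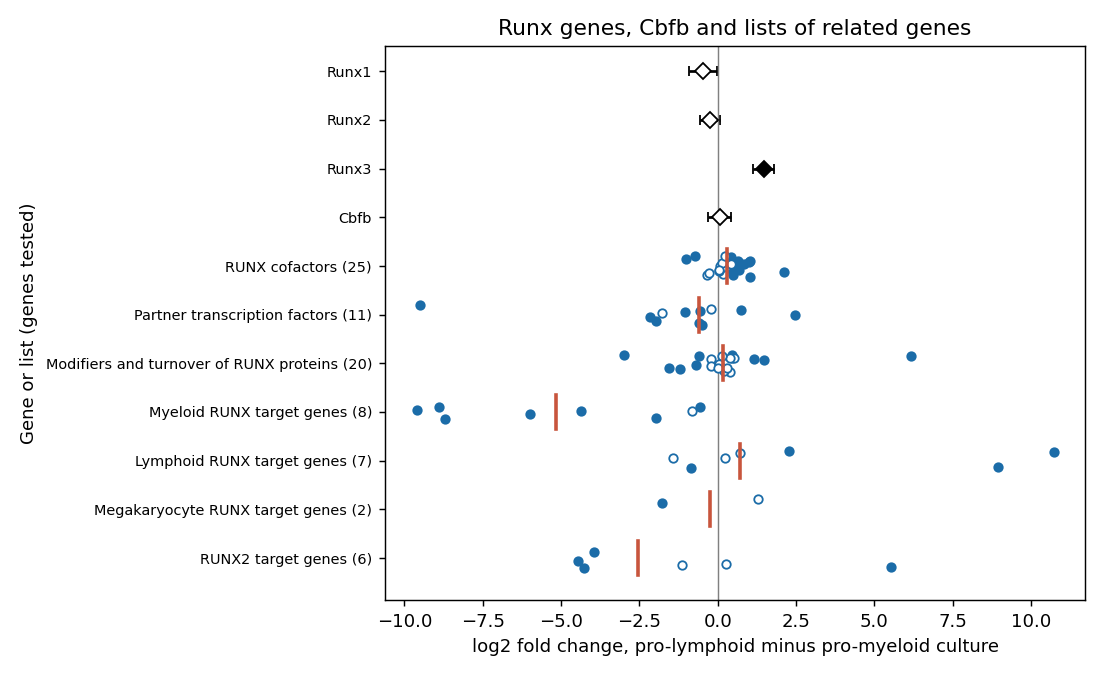
The horizontal axis gives log2 fold changes between the cultures, positive where pro-lymphoid libraries were higher, of the 4 genes as diamonds with 95% intervals, and of the tested genes of 7 related lists as circles, with the number tested in parentheses. Filled symbols passed the edgeR test, open ones did not, red bars are list medians and vertical scatter within a list has no meaning; Runx3 is the filled diamond at 1.47, and the point at the far right is Rag1, a fitted value against 0 pro-myeloid counts.

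ACCACA matches near the start sites were not limited to the Runx genes. In the RefSeq windows, 18.9% of all genes had at least 1. Among listed genes with a window they were found in 4 of 19 cofactors, 0 of 8 partner factors, 2 of 15 modifiers, 2 of 7 myeloid, 5 of 16 lymphoid, 0 of 5 megakaryocyte and 4 of 11 RUNX2 targets. Rag1, among the lymphoid genes, and Spp1, among the RUNX2 genes, had such a match and were called in opposite directions. A match is a description of letters and not a binding site.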

How the data were processed

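The authors deposited 1 table of raw read counts for 23337 genes in 6 libraries. Per the file headers, featureCounts 1.5.1 counted reads over exons in mm10 without strand, and the deposited counts are not normalized. Tools named in the submitters' processing notes are DESeq2, TopHat, Bowtie and Trimmomatic besides featureCounts. Per the labels' protocols, poly(A) RNA was sequenced as single-end reads. Groups were taken from the labels. From the counts, genes passing filterByExpr were fitted with edgeR 4.0.16 (R 4.3.3; TMM scaling, version 4 quasi-likelihood fit, two-sided F test, Benjamini-Hochberg at 0.05), and SEs and 95% intervals were derived from the F statistic. The fit was tested on simulated counts. CPM values use TMM-scaled library sizes; CPM per kb divides by the counted exon length. Ratios of pairs used log2 counts and correlations used log2 CPM, each with 0.5 added. The ratio of Cbfb to the summed Runx level used CPM per kb with nothing added. Single values were compared with two-sided exact permutation tests. The text names the 4 genes, the 3 genes per list that were tested and had the lowest adjusted p, a panel of 17 genes, 1 of which is not reported here, and for each member the 3 most similar and the most opposite gene in pattern; other genes are named as chosen after their values were seen, apart from markers and Tle1, Tle2, Aes, Ep300 and Supt3h, which were also chosen so. The members and lists were chosen with earlier results of these data known. Alternatives were RLE, upper-quartile or no scaling, no filter or 1 CPM in 3 libraries, DESeq2 1.42.0, limma-voom (limma 3.58.1), no division by length, other added counts and each library left out. The version 3 edgeR fit was added after seeing the data. At these depths 3 counts in 1 library equal 0.0650 to 0.0888 CPM. Promoter windows and start sites are from RefSeq, and antisense genes from GENCODE.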

Additional observations from a re-analysis of the deposited data

How the results depend on the processing

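Runx3 was called higher under each of the 8 other settings of scaling, filter and test (log2 fold change 1.47 to 1.53) and with each library left out (1.38 to 1.57, edgeR adjusted p 0.000416 to 0.00278). Runx1 and Runx2 were not called under any of them, with log2 fold changes of -0.57 to -0.30 and -0.36 to -0.15 when a library was left out. The log2 fold change of Cbfb ranged from -0.048 to 0.18, with -0.006 without pro-lymphoid replicate 6 and -0.048 without pro-myeloid replicate 3. The difference in the log2 ratio of Runx1 to Runx2 ranged from -0.43 to 0.068, the latter without pro-lymphoid replicate 5. The share differences kept their direction throughout. Without division by length the Runx3 share differed by 22.2 percentage points and the log2 ratio of Cbfb to the summed Runx level by -0.02.

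Over all genes, 3086 to 5385 were called when a library was left out in place of 4821, 1298 to 2478 of them higher and 1788 to 2907 lower. Other settings gave 4421 to 5569, with 4665 under the edgeR version 3 fit, chosen after seeing the data. Upper-quartile scaling and no scaling moved the median log2 fold change of all genes to 0.05 and 0.04. With a library left out, 7 to 12 cofactors were higher and 1 to 2 lower, and 3 to 9 modifiers higher and 3 to 4 lower. In the same fits 5 to 7 partner factors, 6 to 7 myeloid targets and 0 to 1 lymphoid targets were lower. RUNX2 targets ranged from 0 to 1 higher and 1 to 4 lower. DESeq2 called 2 lymphoid targets lower and 2 RUNX2 targets higher, no filter gave 2 and the 1 CPM filter 0 RUNX2 targets higher. Single genes whose sign turned with a library left out were Rbm7 (-0.0074 to 0.089) and Vma21 (-0.038 to 0.099), neither of them called. Of the genes named for a pattern like that of Runx2, Man1c1 and Sh3bp4 were called with DESeq2 and without pro-lymphoid replicate 5, Man1c1 also with limma-voom, and Eed without pro-lymphoid replicate 5. The cause of these moves was not tested. No paired analysis was made, because the labels do not say whether libraries of different cultures belong together. The replicate numbers run serially through all libraries, so they cannot show pairing. Genes with few counts, such as Phex, Col1a1 and Cd4, are limited by depth, while the 4 genes had at least 2134 counts in every library.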

Other observations

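Each Runx gene is followed in the genome by members of the Clic and Rcan families, chloride channel-like proteins and calcineurin regulators. These neighbours were looked at after their values were seen. Near Runx1, Clic6 was at 0.03, 0.05 and 0.05 CPM in the pro-lymphoid and at 2.34, 1.66 and 2.82 CPM in the pro-myeloid libraries (log2 fold change -5.66, SE 0.46, edgeR adjusted p = 1.80e-05). Rcan1, the other neighbour there, was not called (-0.28, edgeR adjusted p = 0.180). Near Runx3, Clic4 was at 230, 364 and 280 CPM and at 132, 192 and 242 CPM and was not called (0.63, edgeR adjusted p = 0.0862), nor was Rcan3 (-0.16, edgeR adjusted p = 0.468) or Syf2 (0.02, edgeR adjusted p = 0.914). Near Runx2, Clic5 and Rcan2 had 38 and 2 counts in all and were not tested, and Supt3h was not called (-0.40, edgeR adjusted p = 0.154). Thus 1 of the 6 tested neighbours was called, against 38.6% of all tested genes.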
